A study of Arabidopsis thaliana with 2 samples.

Results

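The type-A response regulators of Arabidopsis thaliana were followed here through 9 genes, ARR3 to ARR9, ARR15 and ARR16, picked by gene identifier from a table of 33565 annotated genes. RNA sequencing had been done on shoots of 7-day-old seedlings of the wild type Col-0 and of wn1, a whitening mutant in the same Col-0 background, whose altered gene the labels do not name. All seedlings grew at 22 °C on solid medium, with days of 16 h light and 8 h darkness, and both are labelled as shoot tissue with cotyledons. Each genotype had 1 library, so no difference had a replicate check and no test was possible. All 9 genes were in the table and had a mean of at least 1 FPKM (mapped fragments scaled by transcript length and library size) over the 2 libraries. Low FPKM values moved in steps that placed the depth at about 12700000 fragments for the wild type and 15650000 for wn1.

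Cytokinin is perceived by membrane histidine kinases, which pass phosphate through histidine phosphotransfer proteins to response regulators in the nucleus. Type-B regulators are DNA-binding activators of transcription. Type-A regulators carry the same receiver domain but no DNA-binding domain, their genes are rapid transcriptional targets of the type-B proteins, and most of them dampen cytokinin signalling in return. Their transcripts are therefore widely used as a readout of cytokinin response, and several of them also act in light signalling, the circadian clock and the shoot meristem.

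ARR7 was much lower in wn1 than in the wild type, while the other 8 of the 9 genes lay within 2-fold on the log2 scale used below. ARR17, a type-A gene outside the 9 with a mean below 1 FPKM, was listed at 0 in the wild type and 1.96 FPKM in wn1. ARR8 was modestly higher in wn1 and its sister gene ARR9 modestly lower, and ARR4 was slightly lower. ARR3, ARR5, ARR6 and ARR16 also had higher values in wn1, none of them beyond counting error as estimated from coding length, which widens the intervals. The difference used below is the log2 difference of FPKM + 1, wn1 minus wild type, which understates the change of genes with few FPKM. By that measure 5 members lay above 0 and 4 below, the median was 0.17, and the range ran from -1.89 to 0.44. Over the 18788 genes with a mean of at least 1 FPKM the median was 0.03, with quartiles of -0.25 and 0.31. Of these genes 52.9% lay above 0. Of the 9 members, 0 were higher in wn1 by 2-fold or more, against 3.67% of all genes, and 1 was lower by 2-fold or more, against 3.65% of all genes. In either direction that is 1 of 9, or 11.1%, against 7.32% of all genes, and the members' share is that of a single gene.

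**Figure D1:**
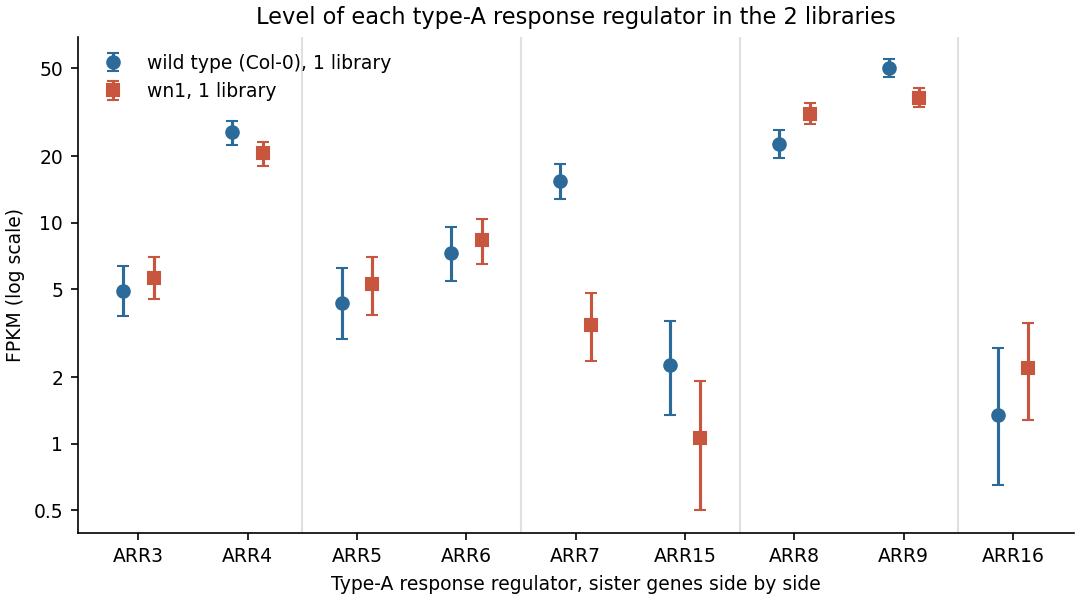
FPKM of the 9 type-A response regulators on a log axis, wild type as circles and wn1 as squares, 1 library each, with sister genes side by side. Bars are 95% Poisson intervals of an estimated fragment count and cover counting error only. ARR7 falls from 15.5 to 3.45 FPKM, and the intervals of its 2 libraries are far apart.

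The levels of the 9 genes spanned 37.0-fold in the wild type and 34.8-fold in wn1. In wild type the order from the highest FPKM was ARR9, ARR4, ARR8, ARR7, ARR6, ARR3, ARR5, ARR15 and ARR16. ARR4 and ARR8 could not be separated by their counting intervals there, nor could any neighbours from ARR6 downwards. In wn1 the order was ARR9, ARR8, ARR4, ARR6, ARR3, ARR5, ARR7, ARR16 and ARR15. ARR9 and ARR8 were not separated in wn1, nor were any neighbours from ARR6 downwards. These intervals use coding length, which is 678 of 2370 transcript bases for ARR8 and 705 of 1625 for ARR9. They are wider than transcript length would give, so an overlap does not show that levels are equal. ARR7 thus moved from the fourth place to the seventh. ARR4, ARR8 and ARR9 together made up 73.4% of the summed type-A FPKM in the wild type and 77.3% in wn1. The sum itself was 134 FPKM in the wild type and 115 in wn1. Without ARR7 it was 119 and 111. ARR9 and ARR7 had the largest drops in FPKM, and that of ARR9 was slightly the larger.

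ARR7 (AT1G19050) and ARR15 (AT1G74890) are sister genes known for their part in the shoot and root meristems, and the meristem regulator WUSCHEL represses both in the shoot. ARR7 had 15.5 FPKM in the wild type (95% counting interval 12.8 to 18.5) and 3.45 in wn1 (2.36 to 4.82). The wild type was 4.49-fold higher, and the log2 difference of -1.89 was the 154th lowest of the 18788 genes. The ratio of wn1 to wild type was 0.223, with a counting interval of 0.146 to 0.328. ARR15 was the lowest member in wn1, with 2.26 FPKM in the wild type (1.35 to 3.61) and 1.06 in wn1 (0.499 to 1.91). Its ratio of 0.469 pointed the same way, but the interval of 0.188 to 1.04, which rests on a low count estimate, included no change. Its FPKM was thus over 2-fold lower in wn1, while the log2 difference of FPKM + 1 was -0.66, and with a pseudocount of 0.1 it was -1.02. ARR15 rested on about 18 fragments in the wild type and 10 in wn1, a low estimate from its 621 coding bases. Its annotated transcript has 1079 bases, so its intervals are wider than the full length would give. No interval from transcript length was computed, so a difference beyond counting error is not excluded for ARR15. The ratio of ARR7 to ARR15 was 6.85 in the wild type and 3.26 in wn1, a change of 0.475. Its counting interval of 0.192 to 1.3 included 1 but rests on the same low counts. It therefore does not settle whether the sisters differ in response.

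The windows of 300 bases just upstream of the annotated starts of ARR7, ARR15, ARR8 and ARR9 are shown because ARR7 and ARR15 had the lowest log2 differences, and ARR8 and ARR9 differed in opposite directions with counting intervals that did not overlap. They were read from the RefSeq assembly TAIR10.1, whose nuclear chromosomes are those of TAIR10, 5′ to 3′ on the strand of the gene. For ARR9 the outermost of 2 annotated starts was used. Capitals mark AGATT, a form of the core that type-B regulators bind, and AGATAC, the start of a longer site of theirs. Both are marked on either strand, so that AATCT and GTATCT are their reverse complements.
ARR7 window, chr1:6579315-6579614, minus strand: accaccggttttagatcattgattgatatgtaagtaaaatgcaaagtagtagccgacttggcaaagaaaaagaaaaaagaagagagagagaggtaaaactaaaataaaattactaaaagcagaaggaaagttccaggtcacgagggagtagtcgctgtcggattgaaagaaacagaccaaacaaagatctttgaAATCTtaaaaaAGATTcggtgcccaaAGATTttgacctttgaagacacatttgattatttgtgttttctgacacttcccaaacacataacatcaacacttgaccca
ARR15 window, chr1:28133026-28133325, minus strand: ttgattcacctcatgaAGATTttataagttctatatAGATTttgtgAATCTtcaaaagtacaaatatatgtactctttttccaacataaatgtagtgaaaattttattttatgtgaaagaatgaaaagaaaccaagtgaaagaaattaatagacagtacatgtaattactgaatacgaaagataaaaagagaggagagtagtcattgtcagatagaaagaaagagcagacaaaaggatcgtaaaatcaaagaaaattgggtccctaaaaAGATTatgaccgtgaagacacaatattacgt
ARR8 window, chr2:17221540-17221839, plus strand: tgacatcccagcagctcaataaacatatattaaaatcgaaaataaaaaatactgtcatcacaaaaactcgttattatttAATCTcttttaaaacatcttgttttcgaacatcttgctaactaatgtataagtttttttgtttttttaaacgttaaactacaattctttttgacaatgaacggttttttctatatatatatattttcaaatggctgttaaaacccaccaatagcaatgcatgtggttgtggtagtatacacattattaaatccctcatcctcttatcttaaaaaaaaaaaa
ARR9 window, chr3:21108759-21109058, plus strand: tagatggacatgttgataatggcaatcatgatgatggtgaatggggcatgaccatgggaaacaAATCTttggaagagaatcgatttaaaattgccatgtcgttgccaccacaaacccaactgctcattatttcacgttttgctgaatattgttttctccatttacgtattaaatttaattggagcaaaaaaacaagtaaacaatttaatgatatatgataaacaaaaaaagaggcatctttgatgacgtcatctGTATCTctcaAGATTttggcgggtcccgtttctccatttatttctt

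Counted on both strands, the ARR7 window held 3 matches to AGATT, the ARR15 window 4, the ARR9 window 2 and the ARR8 window 1. The ARR6 window also held 3, as many as that of ARR7, and ARR6 did not differ beyond counting error. Among the same windows of 27443 protein-coding nuclear genes, 70.7% held at least 1 match, 13.8% held 3 or more and 4.73% held 4 or more. Of the 9 members, 7 held a match to AGATT, and ARR4 and ARR5 held none. Other forms of the core were not counted. AGATAC was found in 1 of 9, ARR9, against 11.6% of all windows. Over 1000 upstream bases the members held 4 to 7 matches to AGATT, against a median of 4 for all genes. ARR7 and ARR15 shared a longer stretch around the match nearest to their starts, AAAGATTNTGACC, where N is any base. It lay at positions -82 to -70 in ARR7 and -33 to -21 in ARR15, counted back from -1 at the last base before the start. This motif overlaps AGATT and was chosen after the windows had been read. It was built from the ARR7 and ARR15 windows, so both hold it by construction and the count tests nothing. It occurred, on either strand, in 5 of the 27443 windows, and 2 of these are the windows of ARR7 and ARR15. No other member among the 9 held it. These matches describe the letters of the windows and show no binding.

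ARR8 (AT2G41310) and ARR9 (AT3G57040) are sister genes whose proteins act as negative regulators of cytokinin signalling, and the table lists ARR8 under the symbol RR3. ARR8 had 22.7 FPKM in the wild type (19.7 to 26.2) and 31.2 in wn1 (27.9 to 34.8), a log2 difference of 0.44. ARR9 had 50.1 FPKM in the wild type (45.6 to 55.0) and 36.8 in wn1 (33.3 to 40.6), a log2 difference of -0.44. For each of them the counting intervals of the 2 libraries did not overlap. How often this held among all genes was not counted. Both differences were under 2-fold and lay well inside the spread of all genes, of which 83.1% had a lower difference than ARR8, while ARR9 was the 2823rd lowest. The ratio of ARR8 to ARR9 was 0.454 in the wild type and 0.849 in wn1, 1.87 times as high, with a counting interval of 1.49 to 2.35. That ratio is taken within each library and does not depend on how the libraries are scaled. Without replicates it is not known how much it varies between plants. The coding sequences of ARR8 and ARR9 were 81.3% identical over their aligned bases and the transcripts shared a longest exact run of 41 bases, so some reads could have been assigned to either gene. Each also overlaps another gene annotated in TAIR10.1, and no source used here gives the strand setting of the counts.

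ARR3 (AT1G59940) and ARR4 (AT1G10470) are linked to light and the clock, and ARR4 binds and stabilises the active form of phytochrome B. ARR4 had 25.7 FPKM in the wild type (22.6 to 29.0) and 20.7 in wn1 (18.1 to 23.3). Its ratio of 0.804 had a counting interval of 0.672 to 0.961, and the intervals of the 2 levels overlapped. These intervals use coding length, 780 of 2017 transcript bases for ARR4, and are wider than the full length would give. ARR3 had 4.92 FPKM in the wild type and 5.65 in wn1, which is a log2 difference of 0.17 within counting error. The ratio of ARR3 to ARR4 was 0.192 in the wild type and 0.274 in wn1, a change of 1.43 with an interval of 0.964 to 2.1. This pair, at 81.4% identity and with a longest shared run of 41 bases, was open to shared reads in the same way.

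ARR5 (AT3G48100) and ARR6 (AT5G62920) are among the most rapidly cytokinin-induced genes, and the ARR5 promoter is a common reporter of cytokinin response. ARR5 had 4.34 FPKM in the wild type (2.99 to 6.24) and 5.28 in wn1 (3.82 to 7.01). ARR6 had 7.32 FPKM in the wild type (5.45 to 9.57) and 8.34 in wn1 (6.48 to 10.4). Their log2 differences were 0.23 and 0.17. The counting intervals of the ratios, 0.737 to 1.95 for ARR5 and 0.784 to 1.65 for ARR6, both included 1. These intervals use coding length, 555 of 1450 transcript bases for ARR5 and 561 of 1459 for ARR6. They are wider than transcript length would give, and by them no difference was detected. The ratio of ARR5 to ARR6 was 0.593 in the wild type and 0.632 in wn1. The annotated span of ARR6 overlaps AT5G62910, a gene with 13.1 FPKM in the wild type and 10.6 in wn1.

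ARR16 (AT2G40670), the shortest of the 9 proteins at 165 residues, had 1.35 FPKM in the wild type and 2.20 in wn1. Its ratio of 1.62 rested on about 9 fragments in the wild type and 17 in wn1 and had a counting interval of 0.653 to 3.94. Its sister ARR17 (AT3G56380), a type-A gene outside the 9, was listed at 0 in the wild type and at 1.96 FPKM in wn1. That fell just short of the minimum mean, and no fold is given. ARR17 rested on 0 estimated fragments in the wild type and 14 in wn1. The counting interval of its ratio began at 2.72, so it was higher in wn1 beyond counting error. The coding sequences of ARR16 and ARR17 were 84.7% identical, with a longest shared run of 23 bases.

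**Figure D2:**
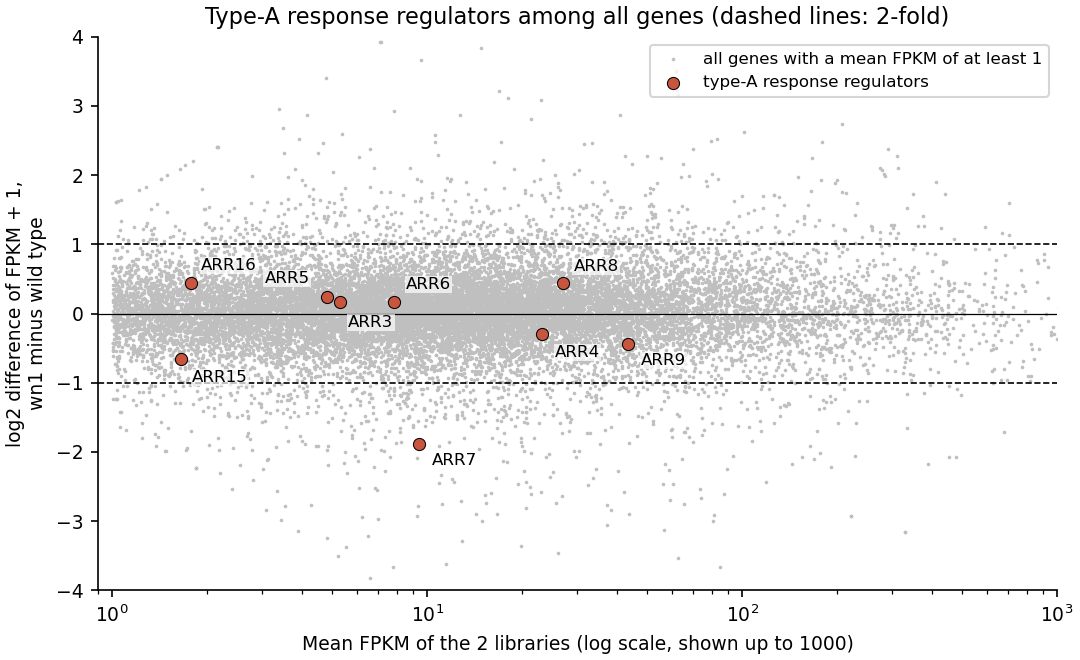
Log2 difference of FPKM + 1 (wn1 minus wild type) against the mean FPKM of the 2 libraries on a log axis, for all genes with a mean of at least 1 FPKM as grey points and the 9 type-A regulators in red. Dashed lines mark 2-fold, and ARR7, at -1.89, is the member beyond them.

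The gene models of the members were alike, with 5 or 6 exons and proteins of 165 to 323 residues. Sister pairs aside, the 32 other pairs among the 9 had coding sequences 62.9% to 74.3% identical over aligned bases and shared no run over 23 bases. For ARR7 and ARR15 identity was 77.7% and the longest run 19 bases, and for ARR5 and ARR6 80.1% and 20 bases.

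Upstream of the type-A genes, all but 1 measured gene of the signalling chain lay within 2-fold. The 4 measured histidine kinases all lay above 0, against 52.9% of all genes. Their median was 0.26 and all were within 2-fold. Among them the receptor AHK2 had 5.96 FPKM in the wild type and 10.8 in wn1, the receptor AHK3 had 44.8 and 48.6, and AHK5, which is not a cytokinin receptor, had 2.38 and 3.45. Of 5 measured phosphotransfer proteins 4 lay within 2-fold. AHP4 was the other, with 30.5 FPKM in the wild type and 10.7 in wn1, which is a log2 difference of -1.43. AHP2, the highest of the family, had 42.6 and 37.5, and AHP3 had 12.2 and 10.9. All 6 measured type-B regulators lay within 2-fold, with a median of -0.12. ARR1, the highest of them, had 39.8 FPKM in the wild type and 37.9 in wn1, while ARR2 had 14.6 and 19.4, ARR10 had 13.4 and 9.04, and ARR14 had 3.51 and 2.98. The KMD proteins, F-box proteins that direct type-B regulators to degradation, had a median of 0.59, with all 4 above 0 and within 2-fold. KMD1 had 89.6 FPKM in the wild type and 139 in wn1, KMD2 had 6.26 and 11.5, and KMD3 had 47.5 and 70.8. KMD4, the highest of them in the wild type, had 144 and 147, a log2 difference of 0.03. The median of all genes was also 0.03, and rescaled to a common upper quartile KMD4 was -0.01. The type-C regulators ARR22 and ARR24 were listed at 0 in both libraries.

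Genes that set cytokinin levels were mostly within 2-fold as well. Of 10 measured synthesis genes, 9 lay within 2-fold and 7 below 0, with a median of -0.22. Of all genes 52.9% lay above 0. LOG5, of the enzyme family that releases active cytokinin from its nucleotides, had 33.6 FPKM in the wild type and 14.4 in wn1, which is a log2 difference of -1.17. LOG1, the highest of the list, had 44.2 and 36.3. The isopentenyltransferase genes IPT3 and IPT5 had 1.57 and 1.87 FPKM in the wild type against 2.92 and 0.867 in wn1. The FPKM ratio of IPT5 was 0.464, with a counting interval of 0.208 to 0.908, and its log2 difference was -0.62 with a pseudocount of 1 and -1.03 with 0.1. All 6 measured genes of breakdown and conjugation lay within 2-fold on the same log2 scale with a median of -0.19, and so did the 4 measured transport genes, also with a median of -0.19. The oxidase gene CKX5 had 3.02 and 1.57 FPKM, the glucosyltransferase gene UGT85A1 had 5.05 and 9.26, and the exporter gene ABCG14 had 13.7 and 9.43. CKX7, also an oxidase gene, had 7.63 and 5.29, and the glucosyltransferase gene UGT76C1 had 28.0 and 21.8. The transporter genes PUP14 and ENT3 had 35.5 and 1.69 FPKM in the wild type and 28.7 and 3.46 in wn1. The FPKM ratio of ENT3 was 2.05, with a counting interval of 1.28 to 3.31, and its log2 difference of FPKM + 1 was 0.73.

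The cytokinin response factors and a list of cytokinin-induced genes did not move as a block. Of the 6 cytokinin response factors, transcription factors of the AP2/ERF family, 5 lay within 2-fold and the median was -0.02. CRF1 was listed at 0.244 FPKM in the wild type and 1.87 in wn1, which is a log2 difference of 1.21, CRF5 had 6.07 and 7.95, and CRF6, the highest of them, had 25.1 and 15.6. CRF1 rested on about 3 fragments in the wild type and reached the minimum mean of 1 FPKM only through wn1, where it was high. The separate list of 5 cytokinin-induced genes had a median of 0.64 over its 4 measured members. The GATA factors CGA1 and GNC, which promote chloroplast development, had 8.57 and 21.9 FPKM in the wild type against 35.2 and 45.1 in wn1. Their log2 differences were 1.92 and 1.01, the other way from ARR7, and GNC fell under 2-fold when centred on the median of all genes or rescaled to a common upper quartile. Divided by column sums, CGA1, CRF1 and GNC were all under 2-fold. IAA3, which encodes a repressor of auxin response, had 19.7 and 12.5 FPKM. Over all 10 pathway lists, 3 of 49 measured genes were past 2-fold upwards and 2 downwards, with CRF1 among the 3. Together they were 10.2%, near the 7.32% of all genes, and the median was -0.04.

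**Figure D3:**
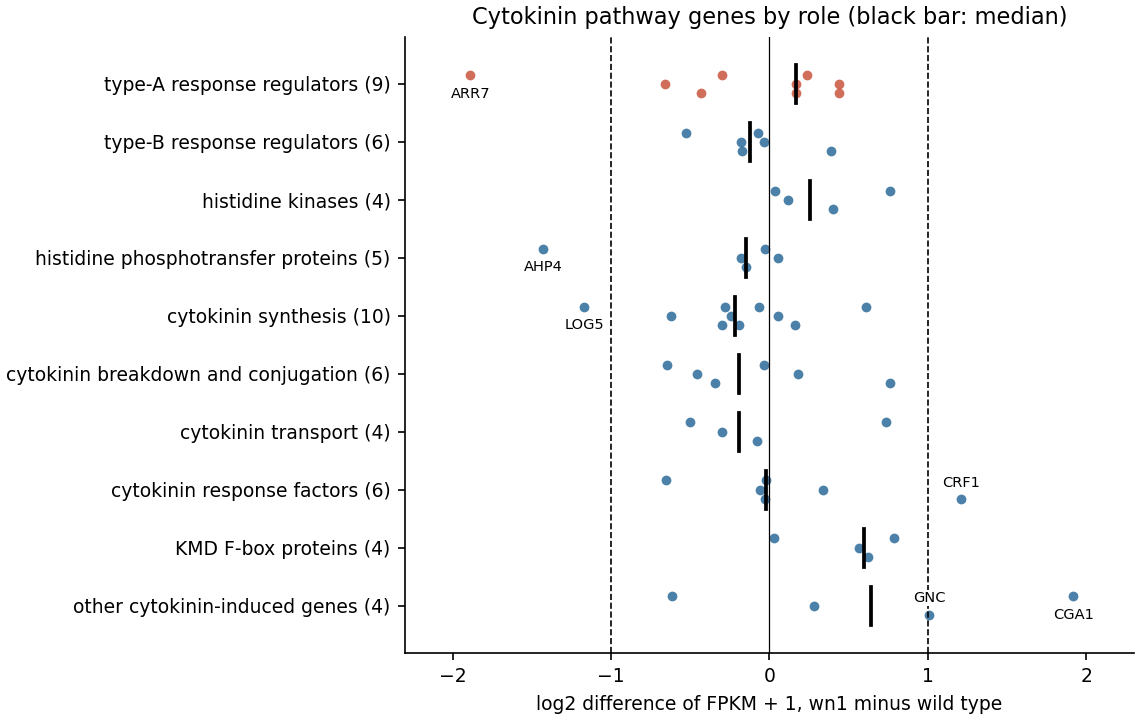
Log2 difference of FPKM + 1 (wn1 minus wild type) of the measured genes in each cytokinin list, 1 point per gene, with the number measured in brackets, the median as a black bar and 2-fold as dashed lines. Named points are past 2-fold, and ARR7, AHP4 and LOG5 lie below while CRF1, GNC and CGA1 lie above.

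Markers of tissues and cell types were read beside these values. The 6 mesophyll markers were abundant, with a summed level of 50184 FPKM in the wild type and 40094 in wn1. Of them 5 lay below 0 and 1 above, with a median of -0.47. RBCS1A had 19784 FPKM in the wild type and 13647 in wn1. Root markers were detected too, although the tissue is labelled shoot: 5 of 8 had a mean of at least 1 FPKM, and the list summed to 93.4 FPKM in the wild type and 71.0 in wn1, with a median of -0.43. EXPA7, of root hairs, had 35.9 and 22.7. Of the vascular markers 7 of 7 lay below 0, while 52.9% of all genes lay above 0. These markers had a median of -0.38, a summed level of 216 FPKM in the wild type and 139 in wn1, and none at 0. The phloem gene SUC2, the highest of them, had 79.6 and 35.8, a log2 difference of -1.13, and APL, which sets phloem identity, had 3.37 FPKM in wn1 and a difference of -1.35. Meristem markers had a median of 0.08 over 4 measured of 9, with sums of 27.8 and 28.9, and KNAT1 had 15.1 and 15.7 FPKM. WUS was listed at 0 in both libraries, and CLV3 was listed at 0.653 in the wild type and 0 in wn1. Markers of dividing cells had a median of 0.21, with KN at 20.5 and 28.1 FPKM. Young leaf patterning genes had 0.40, with AS1 at 51.7 and 78.9. The stomatal lineage had -0.09, with MYB60 at 18.6 and 24.1. On the log2 scale of FPKM + 1 all genes of these lists (7 of 7, 6 of 6 and 8 of 8) lay within 2-fold. By FPKM alone HT1, of the stomatal lineage, was over 2-fold lower in wn1, with a ratio of 0.499 and a counting interval of 0.268 to 0.918. The part of such shifts in the level of ARR7 was not tested. In whole shoots, fewer cells of a type and less RNA per cell cannot be told apart.

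**Figure D4:**
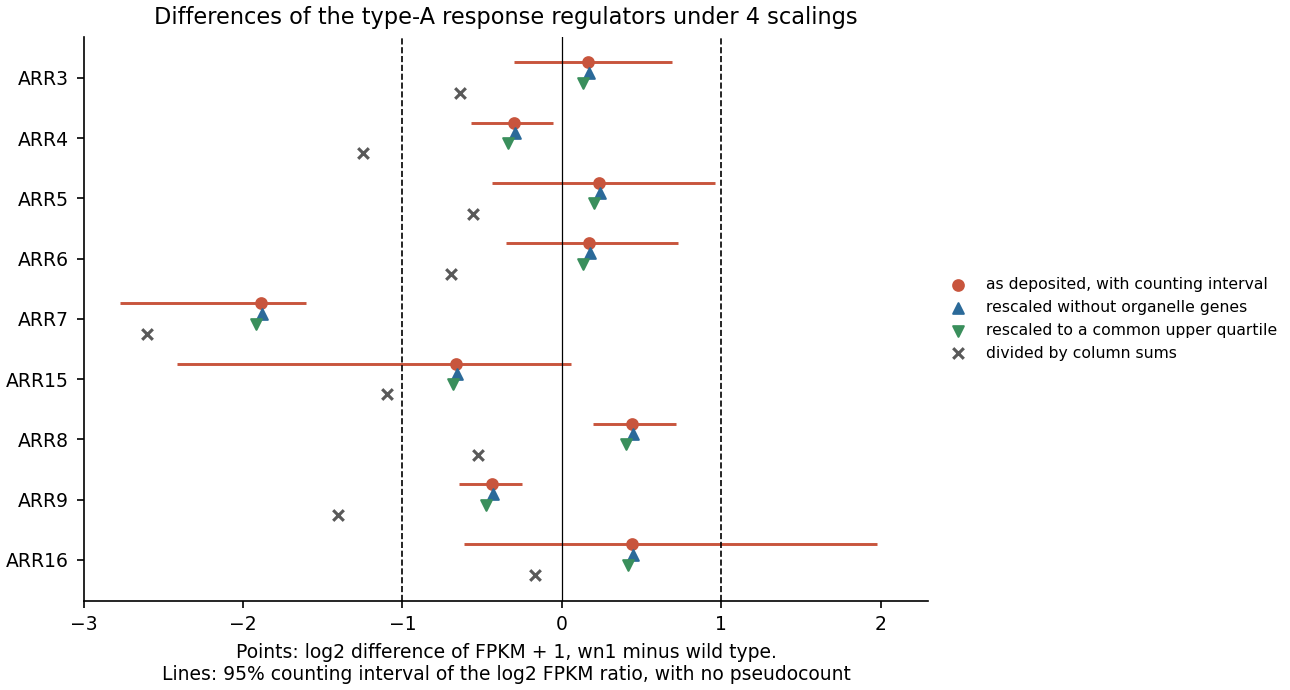
Log2 difference of FPKM + 1 (wn1 minus wild type) of each type-A regulator as deposited and under 3 other scalings, with 2-fold as dashed lines and the 95% counting interval of the FPKM ratio as a horizontal line. ARR7 lies below 2-fold under all 4, from -1.88 to -2.60, while the 5 members above 0 fall below 0 when columns are divided by their sums.

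The scaling of the libraries left the signs of the type-A members alone, with 1 exception. Rescaled without organelle genes, or to a common upper quartile, no member changed sign and ARR7 had log2 differences of -1.88 and -1.92. Divided by column sums, 4 members were at least 2-fold lower, among them ARR7 at -2.60, and the 5 members above 0 turned negative. The median of all genes moved to -0.81 under that division, in which the plastid row ATCG00010 alone made up 54.1% of the FPKM sum in wn1. Relative to that median ARR8, at -0.52, was still above it and ARR9, at -1.41, still below.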

How the data were processed

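RNA from shoots of wild type and wn1, 1 library each, was purified on silica columns and made into Illumina libraries, per the labels' protocols. The authors deposited FPKM values for each annotated gene. TAIR10 and Bowtie are named in the submitters' processing notes. No source used here gives the read counter, versions, filters, strand setting or selection of polyadenylated RNA. Each column was assigned by its name, and 2 columns of other material were not used.

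Differences were taken as log2((wn1 + 1)/(wild type + 1)), with a pseudocount of 1 FPKM, over genes whose mean FPKM reached 1, and 2-fold was the size rule in place of a test. The members and lists were chosen with earlier results of these data known. Named were all 9 members, ARR17, in each pathway list the 3 measured genes with the largest absolute difference and the highest in mean FPKM, and in each marker list the highest. APL, HT1, WUS, CLV3 and AT5G62910 were added after their values were seen. All 135 list genes, in 10 pathway and 7 marker lists beside the members, were found in the table.

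Depth was estimated from genes with 1 reference transcript. Totals came from values up to 0.15 FPKM on transcripts of at least 1000 bases. Of 561 ratios of wn1 to wild type with both values below 0.3 FPKM, 88.8% fell, to within 0.5%, on a fraction of small whole numbers (at most 6) multiplied by 0.82. With that step made 3 percent larger, 1.25% did. Fragment counts used the coding length, which gives a low estimate and wide intervals. Intervals are exact 95% Poisson intervals for a level, Clopper-Pearson for a ratio and conditional exact for a change of ratio. They cover counting error only and not the spread between plants. The steps were tested on simulated data. Coding sequences were aligned globally with Biopython 1.88 (match 2, mismatch -1, gap opening -5, extension -1).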

Additional observations from a re-analysis of the deposited data

How the results depend on the processing

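With 1 library per genotype no library could be left out. No paired analysis was possible because each genotype had a single library. The number of the 9 members past 2-fold was 1 as reported and 2 with a pseudocount of 0.1, where ARR15 reached -1.02. It was 4 after division by column sums. At a threshold of 4-fold on the log2 scale of FPKM + 1 the number was 0. On that scale ARR7 was -1.89, although its FPKM ratio was past 4-fold. The number past 2-fold did not change in the settings that follow. It stayed at 1 with a mean FPKM of at least 5 (6 members left), with no filter, centred on the median of all genes, rescaled without organelle genes and rescaled to a common upper quartile. The median of the members was 0.17 as reported and -0.69 after division by column sums. It was -0.07 for the 6 members with a mean FPKM of at least 5, and 0.13 to 0.19 otherwise. Of all genes, 690 were at least 2-fold higher and 685 lower. After division by column sums 6286 were past 2-fold, 90 higher and 6196 lower, and at 4-fold 200 were, 72 higher and 128 lower. With a pseudocount of 0.1 there were 1920. GNC, at 1.01, was 0.98 when centred on the median of all genes and 0.97 when rescaled to a common upper quartile. After division by column sums GNC was 0.03, CGA1 0.95 and CRF1 0.63, all under 2-fold. Depth limited ARR15 and ARR16 most, with 10 to 18 and 9 to 17 estimated fragments per library, a low estimate from coding length.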
